A study of Mus musculus with 57 samples.

Results

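The genes described here are 33 enzymes, transporters and regulators of glycolysis and of the response to low oxygen. They were chosen by name: every row of the deposited count table with an Ensembl identifier and a symbol on the list was taken. All 33 were found, among 56332 genes in the table (47712 with an Ensembl identifier). They fall into 2 glucose transporters, 10 enzymes of upper glycolysis, 6 of lower glycolysis, 4 genes of lactate handling, 4 regulatory kinases and 7 genes of oxygen sensing or its targets. Together they took between 0.12% and 1.56% of a library's counts.

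Glycolysis splits glucose into pyruvate through a chain of cytosolic enzymes, most of which exist as paralogs with different kinetics. Pyruvate is reduced to lactate and exported, or passes through pyruvate dehydrogenase into the mitochondrial tricarboxylic acid (TCA) cycle. Under low oxygen the transcription factor HIF-1, whose alpha subunit is encoded by Hif1a, is stabilised because its prolyl hydroxylases (Egln1, Egln3) need oxygen, and it activates many glycolytic genes, Vegfa, Bnip3 and P4ha1. Bone marrow is a low-oxygen tissue, and blood stem cells are known for relying on glycolysis more than many of their progeny.

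The libraries came from C57BL/6 males, 8 weeks old at the start, given control treatment or antibody to PAPP-A over 4 weeks. All animals were of that strain and sex, and the labels name no altered allele. PAPP-A is a secreted protease that frees insulin-like growth factor from its binding proteins. The 7 populations, as labelled, were whole bone marrow (WBM, unsorted, control only), the blood stem cells (HSC), the progenitors of lymphoid cells (CLP), of granulocytes and macrophages (GMP) and of megakaryocytes and red cells (MEP), the stromal MSC, and cells labelled Myeloid. There were 57 libraries from 20 mouse pools (10 control and 10 treated) in 3 batches: A held HSC, CLP, GMP, MEP, 3 control and 1 treated MSC library and 3 WBM libraries, B held Myeloid alone, and C held MSC, Myeloid and 1 WBM library. A pool is the replicate, and its number of mice is not given in the sources used here, so that p-values measure the spread between pools. The sort gates are likewise not given there.

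Total counts ran from 107412 to 125537299 per library, and 4 libraries had fewer than 1000000. Levels are CPM, counts per 1000000 of the library size after scaling by trimmed mean of M-values (TMM). In the shallowest control MSC library, pool 7, 1 count equals 6.20 CPM. Each sorted population held the highest summed level of its own 10-gene marker list among the sorted groups, save for the lymphoid list, of which MSC control pool 7 held 127164 CPM and treated MSC pool 8 held 31697 CPM, against 2917 to 9058 CPM in control CLP. Those MSC libraries also held 210909 and 51164 CPM of the plasma cell list, against 652 to 2719 CPM in the other 8. Their neutrophil lists summed to 8161 and 13403 CPM, against 944.5 to 2959 CPM in those 8. Their erythroid lists summed to 4341 and 7393 CPM, against 845 to 1944 CPM. The neutrophil list summed to 8947 CPM in CLP control pool 1 and 8957 CPM in treated CLP pool 2, against 350 to 2126 CPM in the other 6 CLP libraries. In treated MEP pool 2 it summed to 6146 CPM, against 215.5 to 819.5 CPM in the other 7 MEP libraries. CLP control pool 1 and treated CLP pool 2 also held 493.5 and 571.0 CPM of the stromal list, against 14.1 to 34.5 CPM in the other 6. Their monocyte and macrophage lists summed to 1633 and 1739 CPM, against 405 to 639 CPM. Their erythroid lists summed to 988.5 and 1242 CPM, against 107 to 515 CPM. Counts of called genes in control libraries are therefore also given without the 2 control libraries among these. The list of GMP markers summed to 3454 to 10664.5 CPM in control CLP. Control HSC held 749 to 860 CPM of it and control MEP 1036 to 2143 CPM. In the CLP comparison below, 9 of its 10 genes were called higher by edgeR, where 18.5% of all genes were. Its part in the CLP levels, such as those of Hk3, Egln3 and Pgam1, was not tested. In bulk RNA such as this, fewer cells of a type and less RNA per cell cannot be told apart.

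**Figure D1:**
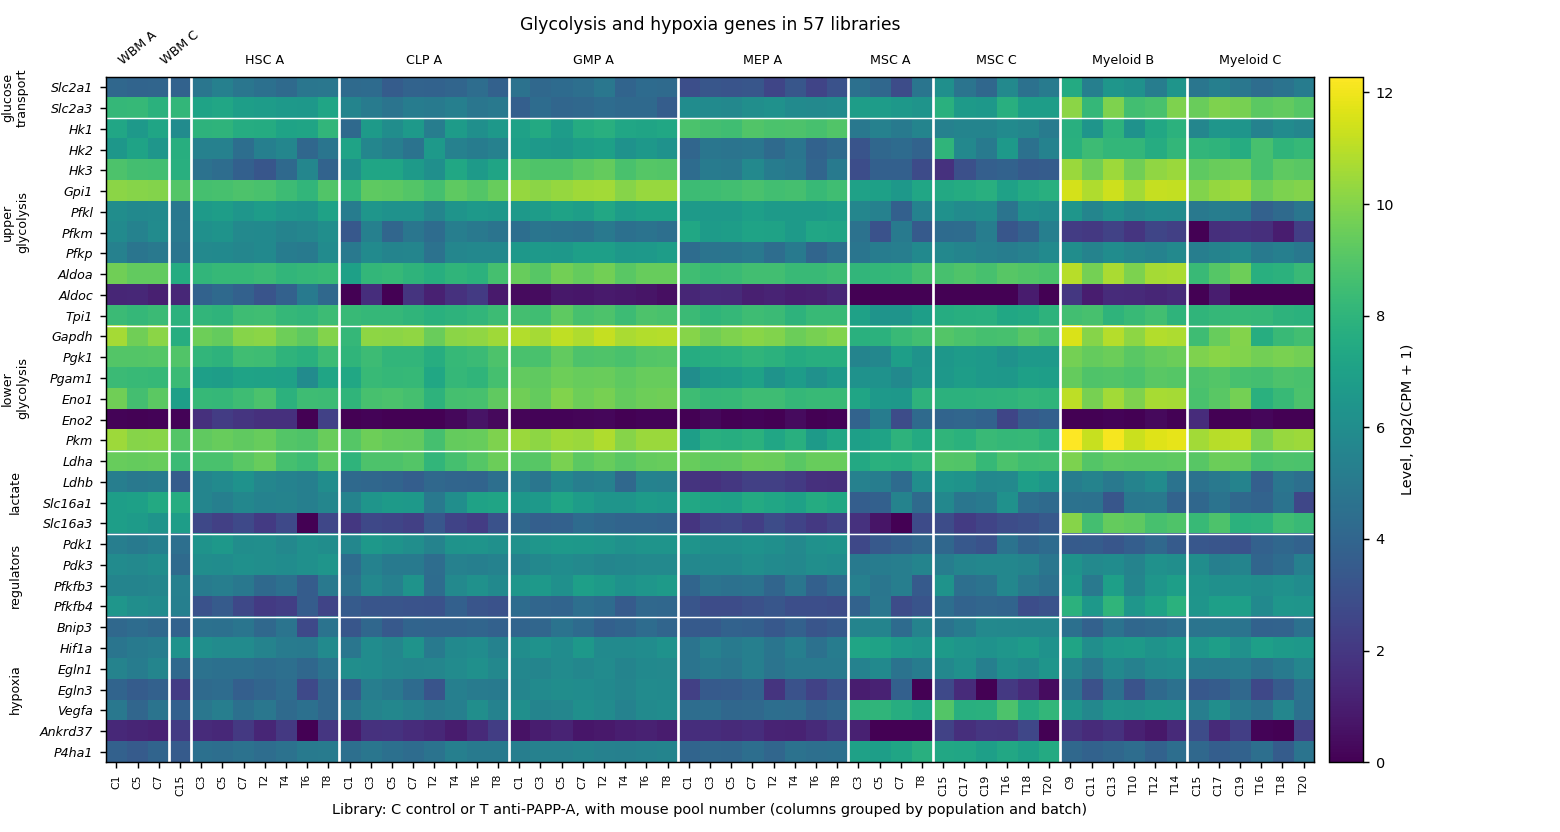
Level of each of the 33 genes (rows, grouped by role) in each of the 57 libraries (columns, grouped by population and batch, control C and anti-PAPP-A T with the pool number), coloured by log2(CPM + 1). GMP and Myeloid columns are bright in the glycolytic rows, MSC columns are dim there and bright for Vegfa and P4ha1, and Aldoc and Eno2 are near 0 in most columns.

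How the genes differ between populations was tested in the 18 control libraries of the 5 populations sorted in batch A (3 HSC, 4 CLP, 4 GMP, 4 MEP and 3 MSC), each population against the mean of the other 4. The 5 comparisons share these libraries and are not independent of each other. They are called the sorted batch A controls below; WBM is not among them. GMP stood highest: 22 of the 33 genes were higher and 3 lower by edgeR's quasi-likelihood test (Benjamini-Hochberg adjusted p under 0.05), where 21.3% of all 17410 genes tested were higher and 15.1% lower. MSC stood lowest: 21 were lower and 8 higher, where 29.9% of all genes were lower and 26.9% higher. The median log2 difference was 1.01 in GMP and -1.56 in MSC, where the medians over all genes were 0.04 and -0.09.

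The other populations were mixed. In HSC, 10 of the 33 were higher and 5 lower (16.9% and 8.24% of all genes). In CLP, 10 were higher and 7 lower (18.5% and 9.02% of all genes), but without CLP control pool 3 only 6 were higher. In MEP, 7 were higher and 14 lower (22.2% and 15.3% of all genes). Without MSC control pool 7, the library with plasma cell transcripts, 8 genes were higher and 21 lower in MSC, and 9 higher and 6 lower in CLP. Without CLP control pool 1, 11 were higher and 6 lower in CLP.

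Because most glycolytic genes were low in MSC, each blood population was also set against the mean of the other 3 blood populations by edgeR, a comparison added after the data were seen. GMP then had 20 genes higher and 3 lower, where 10.9% of all genes were higher and 11.2% lower. HSC had 7 higher and 6 lower (17.2% and 11.5% of all genes), and MEP 4 higher (Pfkm, Hk1, Slc16a1 and Slc2a3) and 16 lower (12.5% and 11% of all genes). CLP had 2 higher (Hk3 and Egln1) and 5 lower (15.8% and 7.6% of all genes). The calls lost in this way were those of Hk1, Pfkm, Pkm and Pdk1 (higher) and Vegfa and P4ha1 (lower) in HSC. In GMP they were Pfkl, Ldha, Slc16a1 and Pdk1 (higher) and Eno2 (lower). In MEP they were Pfkl, Ldha, Pdk1 and Pdk3 (higher) and Eno2, Pfkfb4 and Egln1 (lower). In CLP they were Hk2, Gpi1, Pgk1, Pgam1, Pkm, Slc16a1, Pdk1 and Egln3 (higher) and Slc2a3, Eno2, Bnip3 and P4ha1 (lower).

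Myeloid cells were compared with MSC in the 3 control libraries of each from batch C. Of 32 genes tested, 11 were higher in Myeloid and 6 lower, where 22.4% of all 16183 genes were higher and 25.9% lower. Aldoc did not pass the filter on low counts there.

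**Figure D2:**
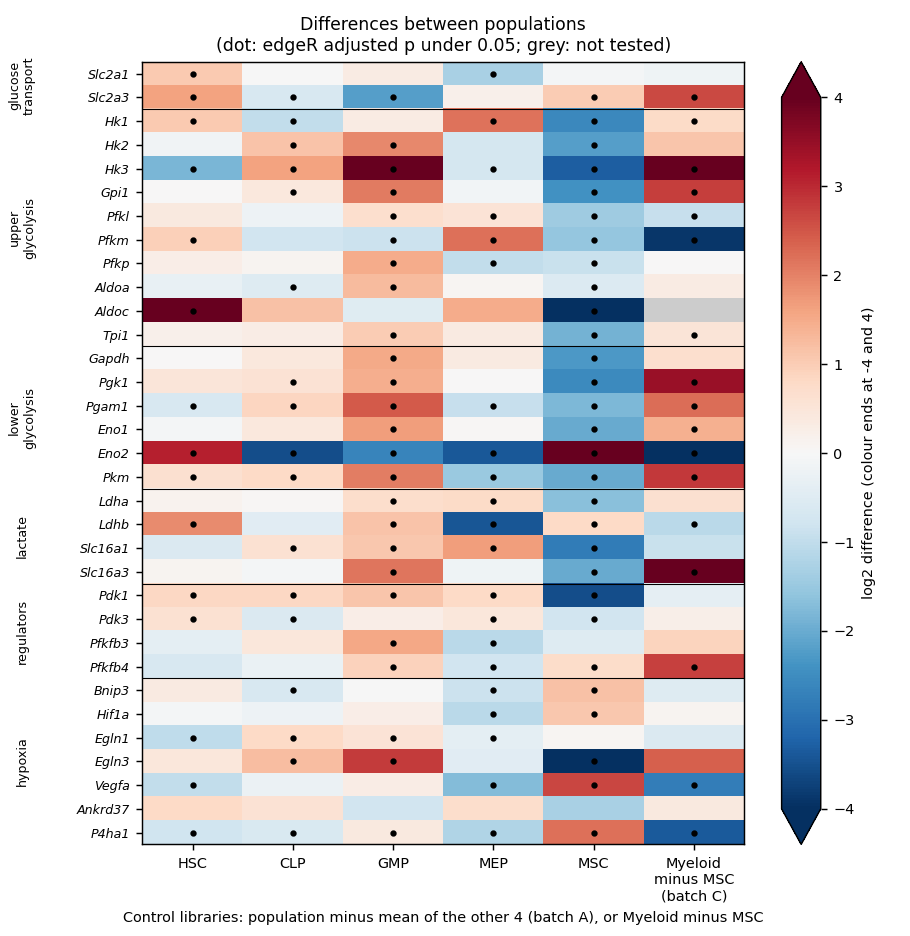
log2 difference of each gene (rows) in control libraries for each population against the mean of the other 4 in batch A, and for Myeloid minus MSC in batch C (columns); dots mark an edgeR adjusted p under 0.05. The GMP column is red for 22 called genes, the MSC column is blue for 21 and red for 8, and the last column is mixed.

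Glucose enters through facilitative transporters. Slc2a3 (GLUT3, a high-affinity transporter, chromosome 6) measured 139, 152 and 118 CPM in the 3 control HSC libraries. In GMP it measured 12.2, 19.1, 15.5 and 16.4 CPM, the lowest of all groups. Control MSC of batch A held 113, 108 and 93.0 CPM, CLP 25.6 to 45.4 CPM and MEP 51.4 to 65.6 CPM, so that HSC lay above all other sorted batch A controls without overlap. Batch A WBM was higher, at 291, 300.2 and 228 CPM. Slc2a3 was higher in HSC by 1.62 (log2, SE 0.14, adjusted p = 2.26e-08) and in MSC by 1.02 (SE 0.16, adjusted p = 1.15e-05), and lower in GMP (-2.19, SE 0.16, adjusted p = 1.65e-09) and CLP (-0.64, SE 0.15, adjusted p = 0.00381). Control Myeloid libraries of batch C held 712, 951 and 858 CPM, against 222, 102 and 92.2 CPM in their MSC counterparts (2.65, SE 0.37, adjusted p = 0.000688).

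Slc2a1 (GLUT1, the widespread basal transporter, chromosome 4) had a narrower range. Control HSC measured 27.2, 39.1 and 26.9 CPM and control MEP 6.61, 8.85, 8.15 and 8.86 CPM, with no overlap between them. A higher level in HSC passed the test (1.05, SE 0.19, adjusted p = 0.000318), as did a lower level in MEP (-1.29, SE 0.20, adjusted p = 4.48e-05). Per length, Slc2a3 made up the larger part of the summed level of this pair in every group except GMP, where Slc2a1 held a median of 60.1% (51.6% to 70.0% over 4 libraries).

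Hexokinases phosphorylate glucose, the first committed step inside the cell, and the 3 paralogs divided the populations. Hk3 (a hexokinase known from leukocytes, chromosome 13) measured between 475 and 572 CPM in the 4 control GMP libraries. It measured 24.1, 20.0 and 12.5 CPM in HSC and 6.52, 12.4 and 12.4 CPM in batch A MSC. CLP lay between, at 67.4 to 150 CPM, with the GMP markers given above. The difference was 4.20 in GMP (SE 0.20, adjusted p = 6.72e-12), 1.61 in CLP (SE 0.22, adjusted p = 1.58e-05), -1.83 in HSC (SE 0.29, adjusted p = 6.29e-05) and -3.29 in MSC (SE 0.39, adjusted p = 3.04e-07). In Myeloid controls Hk3 reached 777 to 1417 CPM in batch B and 601 to 768 CPM in batch C.

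Hk1 (the widely expressed, mitochondria-bound hexokinase, chromosome 10) ran the other way: 441, 388, 360 and 488 CPM in MEP, 245, 256 and 193 CPM in HSC, and 29.2, 41.0 and 31.0 CPM in MSC. MEP lay above every other sorted batch A control, with a difference of 2.18 (SE 0.24, adjusted p = 6.34e-07), and MSC lay below every one of those controls except CLP control pool 1, at 17.5 CPM (-2.57, SE 0.39, adjusted p = 1.04e-05). Per length, Hk1 formed a median of 82.8% of the hexokinase level in HSC and 86.8% in MEP. Hk3 formed 73.4% in GMP, 54.5% in CLP, 79.5% in Myeloid of batch B and 76.5% in Myeloid of batch C.

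Hk2, the insulin- and hypoxia-responsive hexokinase (chromosome 6), was higher in GMP (118, 99.1, 89.2 and 112 CPM; 1.93, SE 0.28, adjusted p = 2.58e-05). Its call in CLP (1.13, SE 0.30, adjusted p = 0.00977) rested on CLP control pool 1, which held 139 CPM against 24.4 to 48.5 CPM in the other 3. Without that library, the one with neutrophil transcripts, the CLP difference was 0.28 with an adjusted p of 0.482, and with the mouse pool as a block it was 0.88 with an adjusted p of 0.0725. Hk2 was lower in MSC (-2.20, SE 0.50, adjusted p = 0.000892), where it measured 8.21, 16.2 and 18.6 CPM (batch A) or 257.6, 52.8 and 32.2 CPM (batch C), so that the batches did not overlap.

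**Figure D3:**
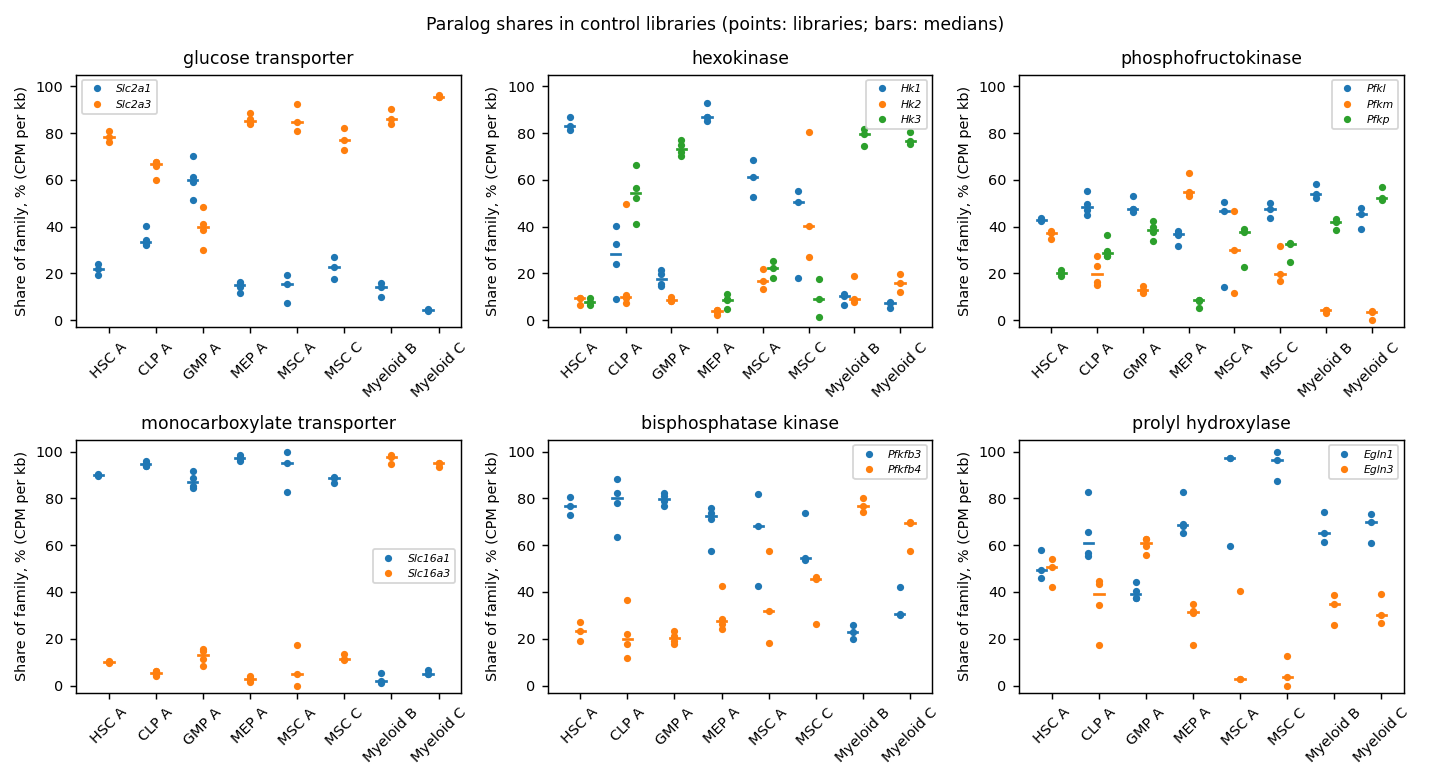
Share of each paralog (vertical axis, percent of the family's summed CPM per kilobase of the principal transcript) in each control library (points) with the median (bars), for 6 families in which the leading member differed between groups. Hk1 leads in HSC and MEP and Hk3 in GMP and Myeloid; Pfkm leads in MEP; Slc16a3 and Pfkfb4 lead in Myeloid.

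Phosphofructokinase commits hexose to glycolysis. Pfkm (the muscle-type subunit, chromosome 15) measured 157, 107, 114 and 137 CPM in control MEP, above all other sorted batch A controls, the highest of which was an HSC library at 78.8 CPM. It was higher in MEP by 2.22 (SE 0.23, adjusted p = 2.80e-07) and in HSC by 0.97 (SE 0.26, adjusted p = 0.00943), and lower in GMP (-0.86, SE 0.27, adjusted p = 0.0148). The HSC call was lost against the other blood populations (0.62, adjusted p = 0.0934). Myeloid controls of batch C held 0, 2.18 and 2.51 CPM, against 18.4, 19.0 and 35.4 CPM in MSC (-3.90, SE 1.11, adjusted p = 0.0203; without Myeloid control pool 17 the adjusted p was 0.0573). Pfkm formed a median of 54.6% of the phosphofructokinase level per length in MEP and 3.59% in Myeloid of batch C.

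Pfkl (the liver-type subunit) and Pfkp (the platelet-type subunit) were both higher in GMP, by 0.69 (SE 0.18, adjusted p = 0.00471) and 1.49 (SE 0.14, adjusted p = 4.73e-08), and both lower in MSC. Against the other blood populations the GMP difference of Pfkl was 0.35 and its call was lost (adjusted p = 0.210). Pfkp was lower in MEP (-0.99, SE 0.16, adjusted p = 4.97e-05), where control libraries held 19.6 to 29.9 CPM against 93.3 to 120 CPM in GMP. In Myeloid of batch C the largest median share, 52.1%, belonged to Pfkp.

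Gpi1, the isomerase that turns glucose 6-phosphate into fructose 6-phosphate (chromosome 7), measured 1273, 1141, 1270 and 1472 CPM in control GMP. The 3 batch A MSC controls held 132, 126 and 93.0 CPM, and the sorted controls of HSC, CLP and MEP 280 to 593 CPM. GMP was thus above and MSC below every other sorted batch A control: 2.09 (SE 0.15, adjusted p = 9.75e-10) and -2.42 (SE 0.22, adjusted p = 8.87e-09). In batch C, Myeloid controls held 979, 1282 and 1458 CPM and MSC controls 172, 185 and 214 CPM (2.76, SE 0.23, adjusted p = 4.13e-05).

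Aldoa, the main aldolase, was higher in GMP (1.27, SE 0.15, adjusted p = 1.57e-06) and lower in CLP and MSC, by less than 1 on the log2 scale in each. Tpi1, triose phosphate isomerase, was higher in GMP (1.01, SE 0.15, adjusted p = 2.37e-05) and lower in MSC (-1.90, SE 0.21, adjusted p = 1.94e-07). Neither was called in HSC or MEP.

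Aldoc, the brain-type aldolase (chromosome 11), was highest in HSC, at a low level. Control HSC held 13.7, 17.2 and 12.9 CPM, with 473 counts over the 3 libraries. The other 4 batch A populations held between 0 and 2.63 CPM in every control library, so that HSC did not overlap with any of them (5.41, SE 0.57, adjusted p = 8.37e-07). That difference is set against a mean that includes MSC with 0 counts. Against the other blood populations it was 3.75 (SE 0.44, adjusted p = 2.79e-06 by edgeR). Treated HSC held 8.04 to 32.9 CPM, the highest being 6 counts in pool 6. Aldoc had 0 counts in all 6 control MSC libraries, which allows up to 0.177 CPM in the deepest of them and up to 18.6 CPM in pool 7, and although edgeR called it lower there (adjusted p = 0.00316) no fold is given. Even in HSC, Aldoc was a median of 2.63% of the aldolase level per length.

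In lower glycolysis, triose phosphate is turned into pyruvate with a net gain of ATP. Gapdh, the dehydrogenase at its start, measured 1574 to 2181 CPM in control GMP and 223, 235 and 322 CPM in batch A MSC. It was higher in GMP (1.51, SE 0.23, adjusted p = 2.25e-05) and lower in MSC (-2.30, SE 0.33, adjusted p = 4.96e-06). It was not called in HSC, CLP or MEP. CLP control pool 1 held 292 CPM, against 1142 to 1210 CPM in the other 3 CLP controls.

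Pgk1, the first ATP-forming enzyme (chromosome X), measured 45.1, 51.0 and 118 CPM in batch A MSC, below all other sorted batch A controls (195 to 640 CPM; -2.54, SE 0.26, adjusted p = 4.02e-08). The batch C MSC controls lay in the same range, at 90.4, 106 and 95.2 CPM. Myeloid controls of that batch held 968, 1086 and 1002 CPM (3.44, SE 0.19, adjusted p = 6.00e-06). Pgk1 was also higher in GMP (1.45, SE 0.16, adjusted p = 7.34e-07). A processed copy, Pgk1-rs7, held 3020 estimated counts over all 57 libraries, and how many reads are shared with it was not tested.

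Pgam1, phosphoglycerate mutase (chromosome 19), separated GMP from the other sorted batch A controls: 625.3 to 760.1 CPM there, against 159 to 309 CPM in CLP, 63.9 to 136 CPM in MEP, 112 to 140 CPM in HSC and 55.8 to 75.8 CPM in MSC. Myeloid control pool 9 of batch B reached 659.5 CPM. Its difference in GMP was 2.47 (SE 0.16, adjusted p = 2.53e-10). Pgam1 was also higher in CLP (0.87) and lower in HSC (-0.63), MEP (-0.91) and MSC (-1.80), each with an adjusted p below the threshold. CLP control pool 1 was again low, at 159 CPM against 291 to 309 CPM. A copy of this gene, Pgam1-ps2, held 3648 counts over all libraries.

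Enolase makes phosphoenolpyruvate. Eno1, the general form (chromosome 4), measured 663 to 978 CPM in GMP and 93.0 to 149 CPM in batch A MSC, with differences of 1.66 (SE 0.15, adjusted p = 2.47e-08) and -2.03 (SE 0.22, adjusted p = 7.77e-08). MSC controls of batch C held 233, 239 and 241 CPM, above those of batch A without overlap. Eno2, the neuronal form (chromosome 6), was low everywhere but was present in MSC at 14.0, 34.2 and 6.20 CPM (batch A) or 14.5, 15.7 and 13.6 CPM (batch C), and in HSC at 2.23, 3.57 and 2.73 CPM. Eno2 was higher in MSC (6.46, SE 0.46, adjusted p = 1.40e-10) and in HSC (3.12, SE 0.48, adjusted p = 4.49e-05). The 6.20 CPM in MSC was 1 count in pool 7. Both differences are set against means that include CLP, MEP and GMP, which had few counts, so that their size is uncertain. Against the other blood populations the HSC difference was 5.05 (SE 0.52, adjusted p = 2.49e-07 by edgeR). The Eno2 counts summed to 1 over the 4 CLP controls, 5 over the 4 MEP controls and 8 over the 4 GMP controls, and no fold is given for these groups although edgeR called all 3 lower (adjusted p = 0.0123, 0.00234 and 0.00853). The GMP call was lost without CLP control pool 3 (adjusted p = 1), and against the other blood populations the calls in CLP (adjusted p = 0.179), MEP (adjusted p = 0.1096) and GMP (adjusted p = 0.382) were all lost. In Myeloid of batch C, 26 of the 27 Eno2 counts came from control pool 15, with 1.91 CPM.

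Pkm, the pyruvate kinase of most tissues (chromosome 9), measured 1165 to 1471 CPM in GMP and 115, 212, 199 and 229 CPM in MEP. Pkm was higher in GMP (2.06, SE 0.16, adjusted p = 3.01e-09), lower in MEP (-1.48, SE 0.19, adjusted p = 4.27e-06) and lower in MSC (-2.03, SE 0.23, adjusted p = 2.54e-07). The other pyruvate kinase gene, Pklr (the liver and red cell form), is not one of the 33; it measured 178 to 322 CPM in control MEP and at most 31.6 CPM in any other sorted batch A control (7.30, SE 0.50, adjusted p = 2.14e-08). Myeloid controls held 1520 to 2111 CPM of Pkm in batch C, against 230 to 318 CPM in MSC (2.84, SE 0.23, adjusted p = 3.90e-05).

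Lactate dehydrogenase links pyruvate and lactate. Ldha, the form favouring lactate, was higher in GMP (0.70, SE 0.17, adjusted p = 0.00221) and MEP (0.77, SE 0.17, adjusted p = 0.000969) and lower in MSC (-1.66, SE 0.23, adjusted p = 2.48e-06). Against the other blood populations both higher calls of Ldha were lost, in GMP (0.31, adjusted p = 0.244) and MEP (0.38, adjusted p = 0.130). Ldhb, the heart-type form (chromosome 6), measured 2.65, 2.35, 2.95 and 4.06 CPM in MEP, against 47.5, 57.3 and 76.8 CPM in HSC, and no other sorted batch A control fell below 11.8 CPM. It was lower in MEP (-3.42, SE 0.24, adjusted p = 1.20e-09) and higher in HSC (1.91, SE 0.18, adjusted p = 1.47e-07), GMP (1.16, SE 0.18, adjusted p = 2.94e-05) and MSC (0.80, SE 0.23, adjusted p = 0.00526). Per length, Ldhb was a median of 0.587% of the pair in MEP, 15.0% in HSC and 18.3% in batch A MSC. In batch C, Ldhb was lower in Myeloid (24.1, 29.7 and 44.4 CPM) than in MSC (85.3, 78.2 and 52.7 CPM), by a log2 difference of -1.08 (SE 0.31, adjusted p = 0.0205). That call was lost without Myeloid control pool 15 (adjusted p = 0.0579), Myeloid control pool 17 (0.0785) or MSC control pool 17 (0.0580).

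Lactate leaves cells through monocarboxylate transporters. Slc16a1 (MCT1, chromosome 3) measured 164, 140, 131 and 179 CPM in MEP and 11.8, 12.4 and 43.4 CPM in batch A MSC. It was higher in MEP (1.68, SE 0.20, adjusted p = 1.16e-06), GMP (1.09, SE 0.20, adjusted p = 0.000212) and CLP (0.60, SE 0.21, adjusted p = 0.0416), and lower in MSC (-2.78, SE 0.34, adjusted p = 6.52e-07). Against the other blood populations its calls in GMP (0.42, adjusted p = 0.166) and CLP (-0.10, adjusted p = 0.765) were lost. Slc16a3 (MCT4, the exporter of strongly glycolytic cells, chromosome 11) measured 305, 463 and 228 CPM in Myeloid controls of batch C and 389 to 1054 CPM in batch B, whereas no control library of the other sorted populations passed 18.5 CPM. Against the batch C MSC controls (6.24, 3.36 and 4.78 CPM) the difference was 6.16 (SE 0.40, adjusted p = 1.17e-05). Within batch A it was higher in GMP (2.14, SE 0.26, adjusted p = 1.74e-06) and lower in MSC (-2.02, SE 0.48, adjusted p = 0.00112). The batch A MSC controls held only 11 Slc16a3 counts over 3 libraries, with 1 library at 0, so that the size of the MSC difference is uncertain. Per length, Slc16a3 made up a median of 97.8% and 95.1% of the pair in Myeloid of batches B and C, and a median of at most 12.9% in the other sorted groups.

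Pyruvate dehydrogenase kinases hold pyruvate back from the mitochondrion. Pdk1 (chromosome 2) was lower in MSC by more than any member except Aldoc and Egln3: 5.31, 9.95 and 12.4 CPM in batch A, against 49.9 to 98.9 CPM in the blood progenitors and stem cells of that batch (-3.56, SE 0.28, adjusted p = 6.12e-10). Batch C MSC held 15.9, 9.49 and 7.55 CPM, and Myeloid controls 8.97, 8.33 and 7.53 CPM. Pdk1 was called higher in HSC, CLP, GMP and MEP, each compared with a mean that includes MSC, and in none of the 4 against the other blood populations. Pdk3 was higher in HSC (0.61) and MEP (0.45) and lower in CLP (-0.57) and MSC (-0.77).

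Pfkfb3 and Pfkfb4 make fructose 2,6-bisphosphate, an activator of phosphofructokinase. Pfkfb3 was higher in GMP (1.54, SE 0.20, adjusted p = 4.52e-06) and lower in MEP (-1.07, SE 0.23, adjusted p = 0.000999). Pfkfb4 was higher in GMP (0.91), by less in MSC (0.75, SE 0.29, adjusted p = 0.0315), and lower in MEP (-0.76). Myeloid controls of batch C held 83.6, 122 and 119.9 CPM of Pfkfb4, against 21.0, 14.1 and 15.4 CPM in MSC (2.74, SE 0.27, adjusted p = 9.83e-05). Pfkfb4 formed a median of 69.3% of the pair per length in those Myeloid libraries and medians of 19.8% to 31.7% in the 5 sorted populations of batch A, but 66.3% in batch A WBM.

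Of the 7 genes of oxygen sensing, 4 were higher in MSC (Hif1a, Vegfa, P4ha1 and Bnip3) and 1 was lower (Egln3). Egln1 and Ankrd37 passed in neither direction. Of all genes, 26.9% were higher in MSC and 29.9% lower. Hif1a measured 148, 132 and 99.2 CPM in batch A MSC and no more than 91.5 CPM in any other sorted batch A control (1.09, SE 0.21, adjusted p = 0.000171), and it was lower in MEP (-1.09, SE 0.20, adjusted p = 0.000255). In batch C, Hif1a measured 103, 84.05 and 76.7 CPM in MSC controls and 86.2, 117 and 74.2 CPM in Myeloid controls, with overlap. Epas1, which encodes the alpha subunit of HIF-2 and is not one of the 33, measured 459 to 856 CPM in batch A MSC and at most 4.08 CPM in the other sorted batch A controls (9.63, SE 0.20, adjusted p = 8.10e-19).

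Vegfa, the endothelial growth factor (chromosome 17), measured 250, 265 and 198 CPM in batch A MSC. The other sorted batch A controls lay between 15.9 and 68.7 CPM, far below (2.66, SE 0.17, adjusted p = 3.22e-11). It was lower in MEP (-1.74, SE 0.20, adjusted p = 7.33e-07) and HSC (-0.99, SE 0.21, adjusted p = 0.00115), but against the other blood populations the HSC difference was -0.35 and the call was lost (adjusted p = 0.210). In batch C, MSC controls held 509, 215 and 224 CPM and Myeloid controls 37.4, 65.4 and 33.2 CPM (Myeloid minus MSC -2.76, SE 0.43, adjusted p = 0.00121).

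P4ha1, a subunit of the prolyl hydroxylase that matures collagen (chromosome 10), gave a tight pattern: 131, 117 and 149 CPM in batch A MSC and 165, 154 and 121 CPM in batch C MSC. GMP held 37.4 to 45.5 CPM and the other blood populations of batch A 14.6 to 27.6 CPM. The difference was 2.21 in MSC (SE 0.14, adjusted p = 1.09e-11), -1.19 in MEP (SE 0.14, adjusted p = 9.96e-07) and -3.35 in Myeloid minus MSC (SE 0.24, adjusted p = 2.05e-05). Bnip3, a mitophagy receptor, was higher in MSC too (1.17, SE 0.22, adjusted p = 0.000123).

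The HIF prolyl hydroxylases differed from each other. Egln1 (PHD2) was higher in CLP (0.79, SE 0.14, adjusted p = 0.000376) and lower in HSC, where it measured 23.8, 22.2 and 22.2 CPM (-1.01, SE 0.17, adjusted p = 0.000154). Egln3 (PHD3) measured 46.6, 58.4, 64.2 and 62.8 CPM in GMP and 0.965, 1.24 and 12.4 CPM in batch A MSC, the last being 2 counts in pool 7. Egln3 was higher in GMP (2.78, SE 0.29, adjusted p = 1.96e-07), lower in MSC (-4.05, SE 0.64, adjusted p = 1.63e-05) and higher in CLP (1.24, SE 0.33, adjusted p = 0.00790). Its counts summed to 8 over the 3 batch A MSC controls, so that the size of the MSC difference is uncertain. The CLP call was lost without CLP control pool 3 (0.88, adjusted p = 0.0907). Per length, Egln3 held a median of 61.0% of the pair in GMP and 2.96% in batch A MSC. Ankrd37, a HIF target of few counts, reached at most 6.32 CPM in any library and was called in no population comparison.

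Promoters of the members were read from the RefSeq table of build GRCm38.p6, as the 250 bases before each annotated start, for 32 of the 33 genes (46 windows). The core of the hypoxia response element was searched as ACGTG and GCGTG on both strands; a match can overlap the E-box CACGTG, which other factors bind. A match to either was in 37 of the 46 windows (80.4%) and in 12679 of all 32851 windows (38.6%). By gene, 29 of 32 members (90.6%) and 41.5% of all genes had a match in at least 1 window. The windows of Gpi1, Tpi1 and Eno2 had none. Of the members called higher in MSC, 6 of 7 with a window had a match, and of those called lower, 19 of 21. A match is a description of letters, and binding was not measured.

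The 4 windows printed here, written 5′ to 3′ on the gene's strand with matches in capitals, show genes with matches and opposite levels: Pgk1 was low and P4ha1 high in MSC, and Slc16a1 was high in MEP where Slc16a3 was high in Myeloid. They lie at chrX:106186850-106187099, chr10:59323046-59323295, chr3:104638414-104638663 and chr11:120948817-120949066, all on the plus strand, and each ends 1 base before the annotated start.
Pgk1: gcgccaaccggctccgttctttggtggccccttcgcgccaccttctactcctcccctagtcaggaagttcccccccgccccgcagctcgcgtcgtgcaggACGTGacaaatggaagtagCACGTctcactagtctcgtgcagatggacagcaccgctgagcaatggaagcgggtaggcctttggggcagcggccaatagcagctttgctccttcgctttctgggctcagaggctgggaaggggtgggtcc
P4ha1: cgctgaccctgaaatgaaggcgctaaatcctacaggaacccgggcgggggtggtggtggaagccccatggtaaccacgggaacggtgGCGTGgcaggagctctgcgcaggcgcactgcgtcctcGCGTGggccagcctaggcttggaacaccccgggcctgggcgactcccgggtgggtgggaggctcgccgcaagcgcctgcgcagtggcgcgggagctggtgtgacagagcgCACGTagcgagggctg
Slc16a1: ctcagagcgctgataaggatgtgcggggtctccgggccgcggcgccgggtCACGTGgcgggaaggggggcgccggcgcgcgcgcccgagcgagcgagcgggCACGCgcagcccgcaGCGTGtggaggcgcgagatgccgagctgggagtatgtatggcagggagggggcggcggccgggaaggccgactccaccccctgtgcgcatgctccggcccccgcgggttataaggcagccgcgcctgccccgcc
Slc16a3: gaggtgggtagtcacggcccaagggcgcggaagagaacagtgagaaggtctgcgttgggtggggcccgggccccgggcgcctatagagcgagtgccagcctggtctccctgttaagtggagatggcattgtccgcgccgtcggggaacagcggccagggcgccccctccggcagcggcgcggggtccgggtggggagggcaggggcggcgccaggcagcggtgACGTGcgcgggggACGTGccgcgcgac
Pgk1 held 2 matches and P4ha1 3, so the windows did not separate these genes by presence of the letters. Slc16a1 held 4 matches, of which 2 overlap in 1 E-box, and Slc16a3 held 2.

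Pathways beside glycolysis were read through gene lists. Over all genes tested, 21.3% were called higher and 15.1% lower in GMP, 22.2% and 15.3% in MEP, and 26.9% and 29.9% in MSC. Of 8 pentose phosphate genes, 7 were higher in GMP and 0 lower, with a median of 1.14; they included Tkt, transketolase, with 945 to 1111 CPM (1.67, SE 0.17, adjusted p = 1.10e-07), and Pgd (1.92, SE 0.14, adjusted p = 2.52e-09). In MSC, 5 of the 8 were lower and 1 higher, the last being H6pd. Of 27 genes of pyruvate entry and the TCA cycle, 18 were higher and 2 lower in MEP, with Idh3a at 1.25 (SE 0.18, adjusted p = 1.22e-05) and Cs at 1.19 (SE 0.17, adjusted p = 1.32e-05). In MSC, 16 of the 27 were lower and 4 higher, among the latter Pdk4, a kinase of the Pdk1 family, with 42.3 to 80.6 CPM (8.08, SE 0.59, adjusted p = 2.14e-10).

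Of 12 tested genes of glycogen and gluconeogenesis, 8 were higher in GMP and 1 lower; Gys1, glycogen synthase, differed by 2.28 (SE 0.18, adjusted p = 5.53e-09). Other hypoxia targets did not move as a block: of 26 tested, 11 were higher and 7 lower in MSC, where Lox, a collagen crosslinking oxidase, reached 434 to 524 CPM (10.94, SE 0.44, adjusted p = 1.46e-13) and Angptl4 142 to 198 CPM (3.78, SE 0.21, adjusted p = 3.19e-12). In HSC, 7 were higher and 6 lower, with Ndrg1 at 1.80 (SE 0.20, adjusted p = 1.13e-06). Of 12 tested genes of the HIF pathway, 3 were higher and 2 lower in MEP, where 22.2% and 15.3% of all genes were. The other batch A populations had fewer calls. In Myeloid against MSC of batch C, 5 of 13 were higher and 5 lower, where 22.4% and 25.9% of all genes were. Of 18 tested among the other glycolysis genes, 3 were higher and 2 lower in MSC, and 6 higher and 3 lower in GMP, where Tigar, a fructose bisphosphatase, differed by 2.35 (SE 0.29, adjusted p = 1.92e-06). The medians over all genes tested lay between -0.09 and 0.09 in these comparisons. Of all genes, 16.9% were called higher and 8.24% lower in HSC, 21.3% and 15.1% in GMP, and 26.9% and 29.9% in MSC. In MSC, the other glycolysis genes in both directions and the lower hypoxia targets did not exceed these shares.

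Unsorted marrow is a mixture of these and other cells. Its 3 batch A libraries held Gpi1 at 1128, 1056 and 1013 CPM and Hk3 at 466.3, 384 and 375 CPM. The single WBM library of batch C held 120 CPM of Eno1, against 396 to 792 CPM in batch A, and 199 CPM of Gapdh, against 774 to 1583 CPM. Its erythroid marker list summed to 210686 CPM, against 15047 to 20969 CPM in batch A; the part of that in these levels was not tested.

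The antibody against PAPP-A was compared with control within each population. By edgeR's adjusted p, 0 of the members tested passed in any of the 7 comparisons: 32 in MSC, 33 in HSC, 32 each in CLP, GMP, MEP and Myeloid of batch B, and 31 in Myeloid of batch C. Over all genes, 0.0313% passed in MSC (5 of 15984), 0.0069% in HSC (1 of 14494) and 0% in each of CLP, GMP, MEP and the Myeloid batches. At an unadjusted p under 0.05 there were 1 member in MSC, 1 in MEP, 9 in Myeloid of batch C and 0 in the other 4; between 0.232% (CLP) and 8.82% (Myeloid of batch C) of all genes had such a p. DESeq2 called 0 members in 6 comparisons and 3, all lower, in Myeloid of batch C, where it called 0.342% of all genes lower. The median log2 difference over members was 0.06 in MSC, 0.07 in CLP, 0.04 in HSC, -0.02 in MEP, -0.01 in GMP, -0.14 in Myeloid of batch B and -0.41 in Myeloid of batch C, where the median over all genes was between -0.03 and 0.03.

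**Figure D4:**
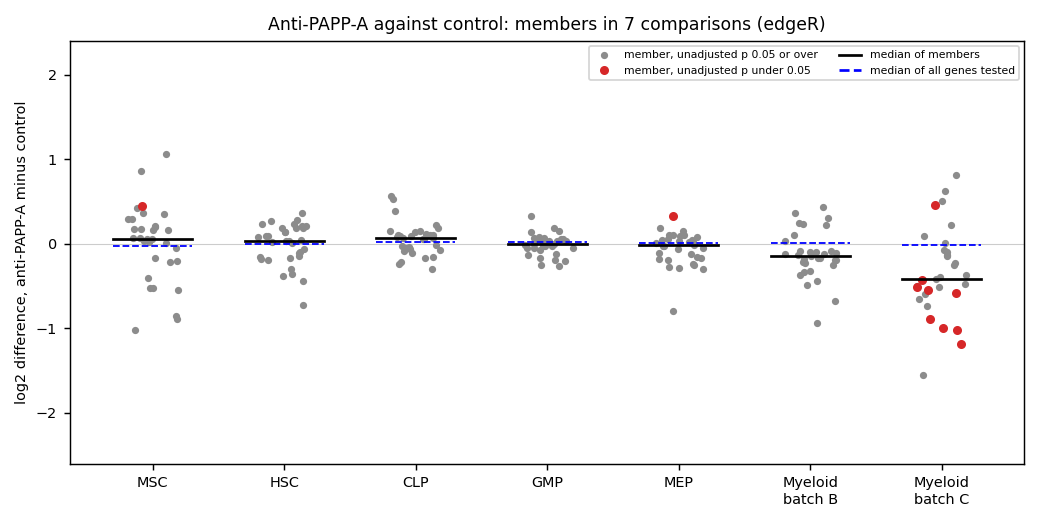
log2 difference of each member (points) between anti-PAPP-A and control in 7 comparisons, with the median of the members (black bar) and of all genes tested (dashed bar); red points have an unadjusted p under 0.05. Points scatter around 0 in MSC, HSC, CLP, GMP and MEP, and the median lies at -0.41 in Myeloid of batch C, where 9 points are red.

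The 2 members with the smallest p in each comparison show how far these differences were from the spread. In MSC, Eno1 measured 149, 98.9 and 93.0 CPM in batch A controls and 244 CPM in the single treated library of that batch. In batch C it measured 233, 239 and 241 CPM in controls and 252, 275 and 264 CPM in treated pools, so that treated values lay above controls within each batch (0.45, SE 0.20, unadjusted p = 0.0332, adjusted p = 0.9993). Pdk1 gave 0.86 (SE 0.46, unadjusted p = 0.0756), and was higher in every treated pool than the mean of the controls of both batches. In batch C its groups overlapped, with 15.9 CPM in control pool 15 and 14.7 CPM in treated pool 18. Control pool 7 and treated pool 8, the batch A libraries with plasma cell and lymphoid transcripts, both had fewer than 1000000 counts. Without treated pool 8 the difference was 0.14 for Eno1 and 0.81 for Pdk1. In batch C the neutrophil list summed to 944.5 to 1596 CPM in MSC controls and 1624 to 1889 CPM in treated pools. The monocyte and macrophage list summed to 1924 to 2358 CPM and 2839 to 3260 CPM, and neither list overlapped. Of these lists, 6 of 10 and 3 of 10 genes had an unadjusted p under 0.05 by edgeR in MSC, and 0 passed the adjusted threshold. The share of all genes with an unadjusted p under 0.05 in MSC lay within the range given above for the treatment comparisons. The part of these shifts in the members' values was not tested.

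In HSC, Hif1a measured 69.5, 59.6 and 59.2 CPM in controls and 43.6, 33.9, 32.9 and 57.6 CPM in treated pools, without overlap (-0.39, SE 0.20, unadjusted p = 0.0682, adjusted p = 0.647). Pfkfb3 differed by -0.44 (SE 0.24, unadjusted p = 0.0810). Treated pool 6, with 107412 counts, was the lowest of both genes. In MEP, P4ha1 held 14.6, 16.9, 15.9 and 20.9 CPM in controls and 15.8, 23.8, 21.1 and 22.5 CPM in treated pools, with overlap (0.33, SE 0.14, unadjusted p = 0.0467, adjusted p = 0.9995), and Egln3 differed by -0.80 (SE 0.40, unadjusted p = 0.0720).

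In CLP, P4ha1 held 19.1 to 27.6 CPM in the 4 controls, and the 4 treated pools held 24.2 to 38.2 CPM (0.39, SE 0.19, unadjusted p = 0.0660), and Slc16a3 differed by 0.53 (SE 0.49). GMP showed the smallest spread: its members' differences ran from -0.26 to 0.32 with a median SE of 0.15, and the smallest p belonged to Slc16a1 (-0.25, SE 0.15, unadjusted p = 0.133) and Pfkl (0.18, SE 0.11, unadjusted p = 0.133). In Myeloid of batch B the smallest p belonged to Ankrd37 (-0.94, SE 0.53, unadjusted p = 0.113) and Slc2a1 (-0.68, SE 0.52). Slc2a1 there held 180, 38.8 and 86.4 CPM in controls and 73.1, 36.4 and 82.5 CPM in treated pools, and without control pool 9 its difference was 0.05.

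Myeloid of batch C was the group in which most members leaned one way. Of 31 tested, 24 had a lower and 7 a higher estimate, and 9 had an unadjusted p under 0.05, where 8.82% of all 14325 genes did. Ldha measured 548, 729 and 693 CPM in controls and 422, 460 and 443 CPM in treated pools, without overlap (-0.54, SE 0.15, unadjusted p = 0.00517, adjusted p = 0.441). Aldoa measured 318, 519 and 752 CPM in controls and 217, 237 and 315 CPM in treated pools, also without overlap (-1.02, SE 0.29, unadjusted p = 0.00553, adjusted p = 0.441).

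The other 7 members with an unadjusted p under 0.05 are named after their values were seen: Gapdh (-1.19, SE 0.36), Eno1 (-0.89, SE 0.29), Pkm (-0.58, SE 0.21), Slc2a3 (-0.51, SE 0.15), Pdk3 (-0.997, SE 0.40) and Gpi1 (-0.43, SE 0.19) were lower in estimate and Hk2 (0.46, SE 0.21) higher. Gapdh measured 350, 695 and 1035 CPM in controls and 197, 318 and 379 CPM in treated pools, so that its groups overlapped. DESeq2 called Aldoa (adjusted p = 0.0423), Gapdh (adjusted p = 0.0431) and Ldha (adjusted p = 0.0485) lower, and edgeR without the filter on low counts called Aldoa, Gapdh and Eno1 lower, where it called 0.645% of all genes lower. With both Myeloid batches in 1 fit with batch as a term, 0 members passed.

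The same libraries differed in markers. The 10 neutrophil genes summed to 175335 to 212802 CPM in batch C Myeloid controls and to 141050 to 170945 CPM in treated pools, without overlap. Of these genes, 0 passed the adjusted threshold, 6 of 10 had an unadjusted p under 0.05, and their median difference was -0.36. The erythroid list reached 125 to 241 CPM in the 3 controls and, in the treated pools, 151 to 1513 CPM, with a median difference of 1.82 over 8 genes. The granulocyte-macrophage progenitor list was also lower without overlap: 3298, 3543 and 3954 CPM in the 3 controls and 1576, 2600 and 3146 CPM under the antibody; 4 of 10 had an unadjusted p under 0.05, with a median difference of -0.45. The stromal list was low in all 6 libraries but did not overlap either, at no more than 128 CPM in any control and at least 156.5 CPM under the antibody, with 2 of 9 genes at an unadjusted p under 0.05. In the erythroid, progenitor and stromal lists, too, 0 genes passed the adjusted threshold. The part of these shifts in the members' values was not tested.

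**Figure D5:**
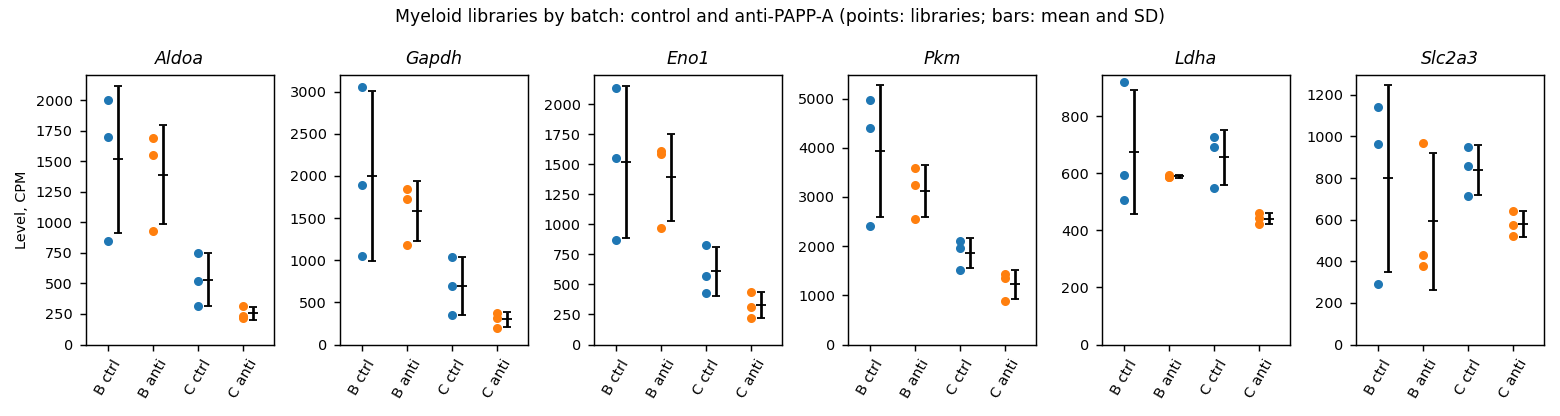
Level in CPM (vertical axes, from 0) of 6 members, chosen after their values were seen, in control (blue) and anti-PAPP-A (orange) Myeloid libraries of batches B and C; points are libraries and bars the mean and SD of 3. In batch C the treated points of Aldoa, Pkm, Ldha and Slc2a3 lie below all controls, and in batch B treated and control points overlap for all 6.

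Whether the response differed between populations was tested directly. In 1 fit of the 53 sorted libraries, 0 of 33 members passed the adjusted threshold, where 0.341% of 26957 genes did (92 genes). At an unadjusted p under 0.05 by edgeR there were 3 members (Pdk1 at 0.00455, Aldoc at 0.0117 and Aldoa at 0.0264). The share of all genes at that unadjusted p is not given here, so that these 3 are not read as an excess. Between the Myeloid batches, 0 of 32 members passed, where 0.00511% of 19551 genes did (1 gene), and 0 had an unadjusted p under 0.05. The lean of batch C was therefore not shown to differ from batch B, where Aldoa measured 2001, 845 and 1700 CPM in controls and 931, 1553 and 1689 CPM in treated pools.

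The lists beside glycolysis gave 0 calls in all 7 treatment comparisons by edgeR, of 11 to 27 genes tested for the lists of TCA, glycogen and other hypoxia targets and 8 for pentose phosphate. At an unadjusted p under 0.05, 5 of 25 genes of pyruvate entry and the TCA cycle were found in Myeloid of batch C, with a median of -0.20, where 8.82% of all genes had such a p. In HSC there were 4 of 24 other hypoxia targets, with a median of -0.11, where 7.98% of all genes had such a p.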

How the data were processed

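RNA-seq of 57 mouse bone marrow libraries was read from 1 table in which the authors deposited estimated counts per gene and sample; per the submitters' processing notes these came from Salmon on mm10 after FastQC 0.11.5. Salmon's version and the annotation release: not given in the sources used here. Estimated counts were cut to whole numbers by dropping any fraction. Depth ran from 107412 to 125537299 counts, and 1 count is worth more CPM in a shallow library. Positions come from GENCODE M21 (GRCm38), promoters from RefSeq (GRCm38.p6). The members and lists were chosen with earlier results of these data known.

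The main test was edgeR 4.0.16 (robust quasi-likelihood, TMM scaling, filterByExpr, Benjamini-Hochberg over all genes tested) in R 4.3.3, with batch as a term for MSC treatment; the script was tested on simulated data. Alternatives were DESeq2 1.42.0, no filter, each library left out, libraries under 1000000 counts left out, batch C alone for MSC, both Myeloid batches in 1 fit, and the mouse pool as a block. Members were named by a rule: up to 4 higher and 4 lower per population comparison with a log2 difference of at least 1 and the smallest p, the 2 with the smallest p per treatment comparison where none passed, every paralog of a family whose leader differs, and up to 2 genes of each list; members outside it are named to account for all 33.

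The labels give pools, so libraries with the same pool number come from the same mice. Their deviations from the group means correlated with a median of 0.07 over 33 pairs in batch A (-0.46 to 0.50) and 0.16 over 3 pairs in batch C. Control and treated pools share no number, so treatment comparisons are unpaired.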

Additional observations from a re-analysis of the deposited data

Results flagged for a closer look

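Groups here are 1 population and treatment, and those of MSC and WBM pool batches A and C. In 24 of 329 groups of 4 to 6 libraries, 1 library stood apart from the others by Dixon's criterion, which chance meets in about 1 group in 20. MSC control pool 15 did so for 5 genes. There Slc2a1 measured 67.8 CPM against 6.20 to 25.1 CPM in the other control MSC libraries, Slc2a3 222 CPM against 92.2 to 113 CPM, and Hk2 257.6 CPM against 8.21 to 52.8 CPM. Pfkfb3 measured 78.1 CPM against 21.6 to 39.3 CPM, and Vegfa 509 CPM against 198 to 265 CPM. All 5 were high in that library. Eno2 stood apart in MSC control pool 5, at 34.2 CPM against 6.20 to 15.7 CPM.

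In treated MSC, Pfkm was high in pool 20 (38.5 CPM against 8.72 to 13.3 CPM), Slc16a1 in pool 16 (73.5 CPM against 18.1 to 21.4 CPM) and Aldoc in pool 18 (0.896 CPM, 18 counts, against 0). Bnip3 was low in treated pool 8, at 44.3 CPM against 50.5 to 51.7 CPM.

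Among CLP libraries, control pool 1 was low in Gapdh (292 CPM against 1142 to 1210 CPM) and Pgam1 (159 CPM against 291 to 309 CPM). Pgk1 was high in control pool 3 (344 CPM against 260 to 273 CPM), where Eno2 was at 0.0970 CPM, a single count, against 0. Treated pool 2 was high in Hk2 (97.8 CPM against 34.9 to 41.3 CPM) and low in Pfkp (23.4 CPM against 48.5 to 52.2 CPM).

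In GMP, control pool 5 was high in Pgk1 (640.0 CPM against 425 to 460 CPM) and Ldha (909 CPM against 531 to 581 CPM), and control pool 7 in Pfkp (120.0 CPM against 93.3 to 96.2 CPM). Treated pool 4 was low in Ldhb (17.0 CPM against 40.9 to 42.1 CPM) and Vegfa (42.3 CPM against 58.4 to 61.2 CPM). In treated MEP, Pfkl was high in pool 8 (114 CPM against 101 to 103 CPM) and Egln1 low in pool 2 (25.5 CPM against 31.9 to 32.8 CPM). In WBM, Ldha was low in pool 15, the batch C library (329.6 CPM against 674 to 684 CPM).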

How the results depend on the processing

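With the mouse pool as a replicate block, the members called higher and lower numbered 10 and 5 in HSC, 8 and 6 in CLP, 22 and 3 in GMP, 7 and 13 in MEP, 8 and 21 in MSC, and 11 and 6 in Myeloid against MSC. Among named members the block changed only the call of Hk2 in CLP (0.88, adjusted p = 0.0725 by edgeR). Against the other 3 blood populations, a comparison chosen after seeing the data, CLP had 2 members higher and MEP 4. Leaving out 1 library at a time gave 7 to 11 higher and 4 to 6 lower in HSC, 6 to 11 and 5 to 8 in CLP, 21 to 23 and 2 to 3 in GMP, 5 to 9 and 11 to 15 in MEP, 6 to 8 and 20 to 22 in MSC, and 9 to 11 and 4 to 7 in Myeloid against MSC. The low value of 6 in CLP came without CLP control pool 3. Each treatment count remained 0 with any 1 library left out.

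In Myeloid of batch C, 3 members were lower with DESeq2 and 3 without the filter on low counts; the cause was not tested. Slc2a1 in Myeloid of batch B turned to 0.048 without control pool 9, and leaving out other libraries took it as low as -1.066. Over all genes, treatment calls by edgeR, DESeq2 and edgeR without the filter were 5, 43 and 55 in MSC, 1, 3 and 181 in HSC, 0, 12 and 2 in MEP, 0, 11 and 42 in Myeloid of batch B, and 0, 139 and 333 in Myeloid of batch C. Depth limits the genes of few counts, such as Aldoc, Eno2 and Ankrd37, and the 4 libraries under 1000000 counts.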
